A study of Mus musculus with 24 samples.

Results

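Nylon fibers were mixed into mouse lung organoids, and the RNA of 8 genes of cholesterol export and its control by the liver X receptors was followed in the epithelial cells. The genes are Abca1, Abcg1, Apoe, Srebf1, Lpcat3, Mylip, Nr1h2 and Nr1h3, 8 of the 14557 gene symbols listed for that fraction, each read from its listed transcript with the highest mean count. They were selected on the counts in these same libraries: Abca1, Abcg1 and Apoe were chosen by their group means, which peak at the lower fiber number. Their values and fold changes are therefore a description, and no p-value is given for them. Receptor activity was not measured, so the genes are called by what they are known for.

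The organoids joined EpCAM-positive primary lung cells of wild-type female C57BL6 mice, whose age the labels do not give, with an equal number of cells of CCL206. CCL206 is a single mouse lung fibroblast line, so all groups carry the same fibroblasts. Wells held no fibers (control), 12000 or 30000 nylon 6,6 fibers of 12 by 31 micrometers for 7 days. Beads against EpCAM, an adhesion protein of epithelial cells, then drew out the epithelial fraction, which gave 4 libraries per group from mouse 1 to 4. The 12 libraries of the fibroblast fraction are not used here, because their entries could not be matched to gene names.

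Liver X receptors are nuclear receptors that sense oxysterols, the oxidised forms of cholesterol, and bind DNA as partners of retinoid X receptors. When sterol accumulates they switch on transporters that move cholesterol to lipoprotein particles, a ligase that removes lipoprotein receptors, and genes of fatty acid synthesis. In the lung, the pathway is best known from alveolar macrophages and from the type 2 cells that make surfactant, both of which handle much lipid.

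The DNA string these receptors are known to bind is a pair of 6-base half-sites in the same direction, 4 bases apart, with the consensus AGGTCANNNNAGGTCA. RefSeq start windows, from 250 bases before to 50 bases after a transcript start (build GRCm38.p6), were found for 7 of the 8 genes, 12 windows in all. Both strands were searched. With up to 2 mismatches in the half-sites, 0 of the 12 windows held a match, against 3.02% of all 32851 windows. With up to 3 mismatches, a limit added after that result, 2 windows matched, those of Abca1 and Srebf1, against 21.9% of all windows. The half-sites of both matches are spelled alike, and an exact search for that spelling, GGGTTANNNNCGGTCA, found 3 of the 32851 windows: Abca1, Srebf1 and Fasn, the fatty acid synthase gene. The spelling was taken from the Abca1 match after the Srebf1 match had been seen, so neither of these is a finding, and a match is a string and not a measured binding site.

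The 3 upstream stretches are shown because they share this string. All lie on the minus strand, are written 5′ to 3′ on that strand and end at the base before the start. Capitals mark the match, which stands there as its reverse complement.
Abca1, chr4:53159896-53160045: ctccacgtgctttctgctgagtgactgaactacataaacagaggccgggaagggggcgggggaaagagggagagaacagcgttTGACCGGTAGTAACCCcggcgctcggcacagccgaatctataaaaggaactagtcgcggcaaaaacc
Srebf1, chr11:60210472-60210658: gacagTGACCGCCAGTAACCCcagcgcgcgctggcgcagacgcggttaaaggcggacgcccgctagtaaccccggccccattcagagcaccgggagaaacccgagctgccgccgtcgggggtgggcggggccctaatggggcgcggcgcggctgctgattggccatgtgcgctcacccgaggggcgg
Fasn, chr11:120824548-120824777: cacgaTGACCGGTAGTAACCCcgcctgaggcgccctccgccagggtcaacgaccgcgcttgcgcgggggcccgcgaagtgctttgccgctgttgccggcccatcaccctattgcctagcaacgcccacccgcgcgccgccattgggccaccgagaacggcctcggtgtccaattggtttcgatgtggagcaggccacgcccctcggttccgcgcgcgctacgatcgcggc
The match lies 67 to 52 bases before the start in Abca1, 182 to 167 bases before it in Srebf1 and 225 to 210 bases before it in Fasn.

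Before the results, the libraries themselves differed. Representative transcripts held 7204371 to 9743738 counts in a control library, 6878550 to 10583357 in a library of the lower fiber number and 2799765 to 3723250 in one of the higher. Mitochondrial genes took 14.3% to 16.3% of them at 30000 fibers, against 5.20% to 7.77% in controls and 5.33% to 6.91% at 12000 fibers. The summed level of 18 tested fibroblast markers of 20 was 1167 to 2737 CPM (counts scaled to a library total of 1000000) without fibers, 3302 to 3724 with 12000 and 4631 to 5871 with 30000. At 30000 fibers 16 of the 18 were above control at an edgeR adjusted p under 0.05, where 32.2% of all tested genes were. The 1 marker called lower was Fbln1, with means of 33.4, 3.46 and 0.608 CPM in control, 12000 and 30000 fibers. The 20 epithelial markers summed to 8296 to 9564, 8296 to 9273 and 4718 to 5552 CPM. Of 22 macrophage and leukocyte markers, 16 had no row, among them Ptprc, Adgre1, Marco and C1qa, and the other 6 summed to 195.9 to 269, 207 to 320.4 and 347 to 525 CPM. These 6 did not move together. Lyz2 had means of 108, 192 and 345 CPM, and Cd14 went the other way, with 97.4, 38.7 and 48.8 CPM. The 12 alveolar type 2 markers summed to 2261 to 4316, 4074 to 7087 and 4893 to 7282 CPM, and 4 of 10 endothelial markers to 6.83 to 9.42 CPM over all libraries. The type 2 markers did not move together either. Sftpc, the largest part of the sum, had means of 1671, 2817 and 3599 CPM, and Il33 fell, with 95.8, 19.6 and 20.3 CPM. At 30000 fibers 6 of the 12 were called higher and 3 lower against control, where 32.2% and 33.4% of all genes were.

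The 2 exporters were higher with fibers in every library. ABCA1 hands cholesterol and phospholipid to lipid-poor apolipoproteins, and ABCG1 adds cholesterol to particles that already carry lipid. Abca1 (chromosome 4, 53030787 to 53159895, minus strand, 50 exons, GRCm38) stood at 43.8, 45.1, 62.5 and 65.4 CPM in the controls of mouse 1 to 4. At 12000 fibers it stood at 372.8, 411.4, 371.5 and 408.1 CPM, and at 30000 fibers at 188.1, 127, 179 and 182.7 CPM. The 3 ranges did not overlap, which fixes the same order within each mouse: lowest in the control, highest at 12000 fibers. The means were 54.2 ± 11.3, 391 ± 21.8 and 169 ± 28.4 CPM (SD, n = 4 in each group here and below). The fitted log2 fold change was 2.85 ± 0.15 (SE) at 12000 fibers and 1.64 ± 0.15 at 30000 fibers against control, or 7.22-fold and 3.13-fold, and -1.21 ± 0.14 between the fiber groups. The second listed transcript gave 2.93, 0.88 and -2.04. In bulk RNA of a cell fraction, fewer cells of a type and less RNA per cell cannot be told apart, which holds for every level given here.

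Abcg1 (chromosome 17, 31057687 to 31117988, plus strand, 15 exons) followed the same order at a lower level. Its controls held 2.66, 2.92, 4.30 and 2.63 CPM, its 12000-fiber libraries 34.5, 26.0, 30.3 and 38.9 CPM, and its 30000-fiber libraries 19.2, 7.41, 18.2 and 23.4 CPM. The 3 ranges did not overlap. The log2 fold changes were 3.39 ± 0.25 and 2.47 ± 0.30 (SE) against control, or 10.5-fold and 5.53-fold, and -0.92 ± 0.23 between the fiber groups. Read from the second listed transcript, they were 3.04, 0.35 and -2.69, and the call at 30000 fibers against control was lost. The counts behind these values were small, 21 to 385 reads per library.

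Apoe encodes the apolipoprotein that takes up the exported cholesterol and is a ligand of lipoprotein receptors. Its transcript (chromosome 7, 19696109 to 19699188, minus strand, 4 exons) stood at 48.3, 43.9, 126.6 and 103 CPM in controls, 304.5, 322, 292 and 343.5 CPM at 12000 fibers, and 188.4, 76.5, 140.4 and 171.7 CPM at 30000 fibers. All 12000-fiber libraries were above all others, while the ranges of control and 30000 fibers overlapped. Mice 3 and 4 had more Apoe in their controls than mice 1 and 2. The log2 fold change was 1.98 ± 0.36 (SE) at 12000 fibers, 0.85 ± 0.38 at 30000 fibers and -1.13 ± 0.37 between the fiber groups. Libraries with the same mouse number were also taken as pairs, an assumption that the counts did not settle. The log2 ratio of 12000 fibers to control was then 2.66, 2.88, 1.21 and 1.74. That of 30000 fibers to control was 1.96, 0.80, 0.15 and 0.74, positive in every pair.

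**Figure D1:**
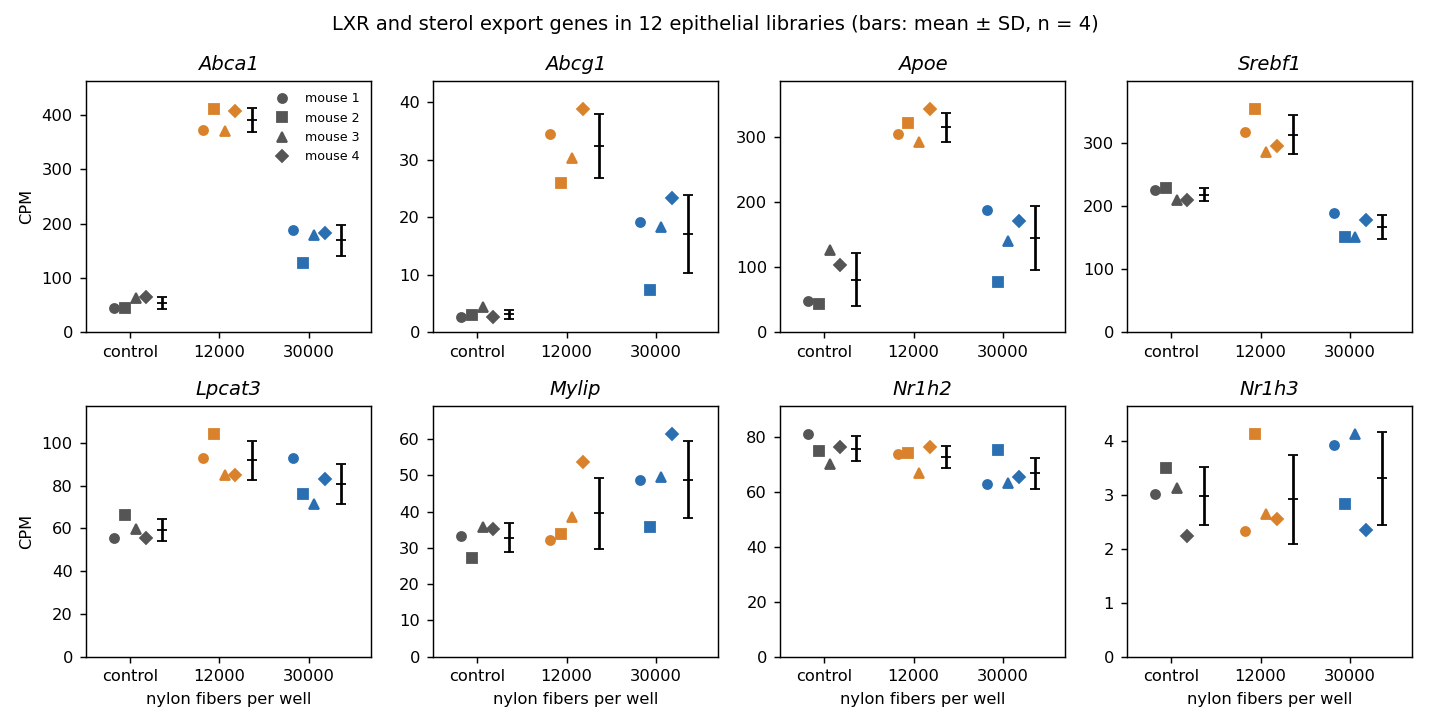
CPM (vertical axis, from 0) of each of the 8 genes in the 12 epithelial libraries, by nylon fibers per well (horizontal axis); symbols are mice and bars the mean ± SD of 4 libraries. Abca1, Abcg1 and Apoe are highest in all 4 libraries of 12000 fibers, Srebf1 drops below its controls at 30000 fibers, and Nr1h2 and Nr1h3 overlap between all groups.

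The library of mouse 2 at 30000 fibers was the lowest of its group for each of Abca1, Abcg1 and Apoe. It also had the highest fibroblast marker sum of all libraries, 5871 CPM, and the lowest epithelial marker sum, 4718 CPM. The part of the cell mixture in these values was not tested. Without that library the log2 fold changes of 30000 fibers against control were 1.76 for Abca1, 2.71 for Abcg1 and 1.06 for Apoe, and those between the fiber groups were -1.09, -0.68 and -0.93. A fit of control and 12000 fibers alone gave 2.86 ± 0.13 for Abca1, 3.40 ± 0.17 for Abcg1 and 1.99 ± 0.36 for Apoe (SE). That estimate rests on these groups in either fit, so leaving out 30000 fibers could hardly change its size and is no check on it.

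The receptors themselves had overlapping ranges in all 3 groups. Nr1h2 encodes LXR-beta, the form found in most cell types, and Nr1h3 encodes LXR-alpha, which is best known from liver, fat and macrophages. Nr1h2 (chromosome 7, 44549617 to 44553948, minus strand, 10 exons) stood at 81.3, 74.9, 70.4 and 76.4 CPM in controls, 73.9, 74.1, 66.9 and 76.2 CPM at 12000 fibers, and 63.1, 75.1, 63.3 and 65.5 CPM at 30000 fibers. The groups overlapped, with log2 fold changes of -0.06 ± 0.07, -0.18 ± 0.08 and -0.13 ± 0.08 (SE) for 12000 against control, 30000 against control and 30000 against 12000.

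Nr1h3 (chromosome 2, 91184061 to 91195116, minus strand, 10 exons) was scarce. Controls held 3.01, 3.50, 3.13 and 2.23 CPM, the 12000-fiber libraries 2.33, 4.13, 2.65 and 2.55 CPM, and the 30000-fiber libraries 3.92, 2.82, 4.12 and 2.34 CPM. The groups overlapped throughout, and with 7 to 36 reads per library the log2 fold changes carried wide errors, -0.04 ± 0.24, 0.16 ± 0.29 and 0.20 ± 0.30 (SE) in the same order. A change of the size of these errors, or somewhat larger, could not be seen at this depth. Per kilobase of transcript, the beta form stood at 38.1 ± 2.26 CPM in controls and the alpha form at 1.65 ± 0.298 CPM (SD, n = 4).

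The other 3 genes behaved in 3 ways. Srebf1 encodes the precursor of SREBP-1, the transcription factor of fatty acid synthesis. Its transcript (chromosome 11, 60199089 to 60220604, minus strand, 19 exons) stood at 226, 228, 209.9 and 209 CPM in controls, 319, 355, 286 and 296 CPM at 12000 fibers, and 189.6, 151, 152 and 178 CPM at 30000 fibers. The 3 ranges did not overlap, but here the 30000-fiber libraries lay below the controls. The log2 fold changes were 0.52 ± 0.08, -0.38 ± 0.08 and -0.91 ± 0.08 (SE). Ranges that do not overlap fix the same signs within each of the 4 mice.

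LPCAT3 loads polyunsaturated fatty acids into membrane phospholipids. Lpcat3 (chromosome 6, 124663027 to 124704418, plus strand, 13 exons) stood at 55.7, 66.3, 59.8 and 55.4 CPM in controls, 93.0, 104.3, 84.9 and 84.9 CPM at 12000 fibers, and 92.8, 75.8, 71.5 and 83.2 CPM at 30000 fibers. Both fiber groups lay above the controls and overlapped each other, with log2 fold changes of 0.63 ± 0.08, 0.44 ± 0.09 and -0.19 ± 0.09 (SE).

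MYLIP, also called IDOL, is the ubiquitin ligase that sends lipoprotein receptors to the lysosome. Mylip (chromosome 13, 45389742 to 45412022, plus strand, 7 exons) stood at 33.2, 27.1, 35.7 and 35.3 CPM in controls, 32.1, 33.7, 38.5 and 53.7 CPM at 12000 fibers, and 48.6, 35.6, 49.5 and 61.5 CPM at 30000 fibers. All groups overlapped, the 30000-fiber mean was the highest, and mouse 4 was the highest library in both fiber groups. The log2 fold changes were 0.26 ± 0.17, 0.58 ± 0.19 and 0.32 ± 0.18 (SE). With the mouse as a block they were 0.25 ± 0.10, 0.56 ± 0.11 and 0.31 ± 0.11, and the first and the last then also passed the threshold. The block assumes that mouse numbers pair the groups, which the counts did not settle.

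**Figure D2:**
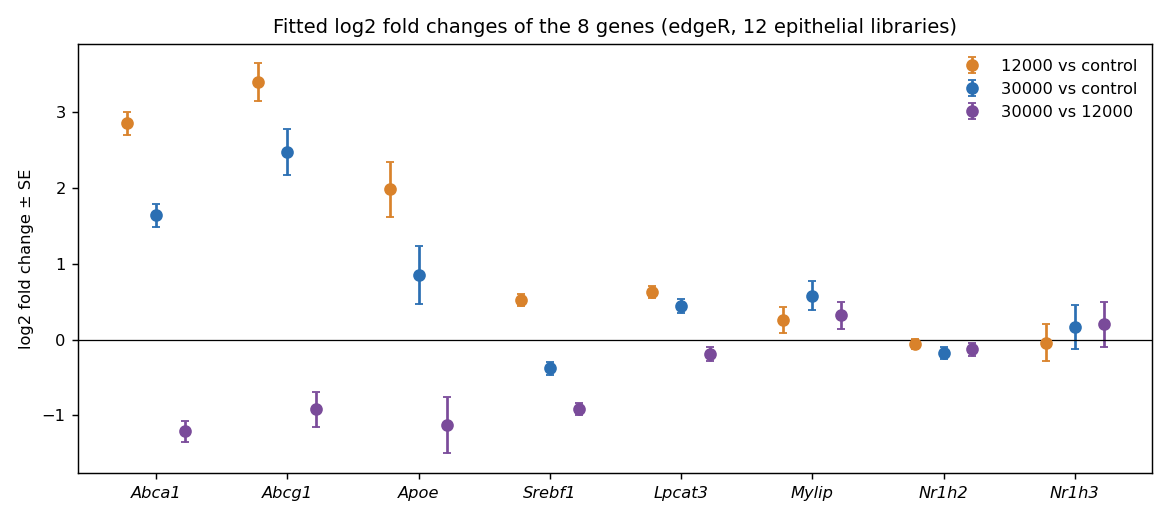
Fitted log2 fold change (vertical axis) of each of the 8 genes (horizontal axis) for 12000 fibers against control, 30000 against control and 30000 against 12000; bars are ± SE from edgeR. Abcg1 and Abca1 have the largest values at 12000 fibers, 3.39 and 2.85, and Srebf1 has opposite signs in the 2 comparisons with control.

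All 8 genes passed the filter on low counts. At an adjusted p under 0.05 from edgeR's quasi-likelihood test, 5 of the 8 were called higher and 0 lower at 12000 fibers, where 18.7% of the 13759 tested genes were called higher and 19.3% lower. At 30000 fibers against control 4 were called higher and 2 lower, against 32.2% and 33.4% of all genes, and between the fiber groups 0 were called higher and 4 lower, against 28.3% and 27.1%. In either direction 38%, 65.6% and 55.4% of all genes were called. Without any overlap between the groups' CPM, 5 of the 8 lay above control at 12000 fibers (17.6% of all genes lay above and 18.7% below), 3 lay above and 1 below at 30000 fibers (28.7% and 29.4%), and 0 lay above and 4 below between the fiber groups (26.7% and 25.6%). Since these contrasts chose the genes, nothing is read from the counts. The 2 lower at 30000 fibers were Srebf1 and Nr1h2, and the call for Nr1h2 held in 3 of 8 alternative settings and with 5 of 12 libraries left out in turn. With the second transcript Abcg1, Srebf1, Mylip and Nr1h2 lost their calls at 30000 fibers against control (0.35, -0.15, 0.03 and 0.03), and with summed transcripts Lpcat3 did (0.21). The call for Mylip was also lost without mouse 4 at 30000 fibers (log2 0.45). That for Apoe between the fiber groups was lost without mouse 2 or 4 at 12000 fibers or mouse 2 or 3 at 30000, with -0.93 without mouse 2 at 30000. The median log2 fold change of the 8 was 0.57, 0.51 and -0.55, against -0.00, -0.03 and -0.01 over all genes. Libraries of 12000 fibers lay above all 8 others in 5.18% of genes, and the mean was highest at 12000 fibers in 23.5%.

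The order of the 8 genes by level was compared per kilobase of transcript. In controls Apoe led at 57.1 ± 29.0 CPM per kilobase (SD, n = 4), followed by Srebf1 at 50.8 ± 2.39, Nr1h2 at 38.1 ± 2.26, Lpcat3 at 26.0 ± 2.23, Mylip at 10.7 ± 1.29, Abca1 at 5.28 ± 1.1, Nr1h3 at 1.65 ± 0.298 and Abcg1 at 0.536 ± 0.136. The mean ± SD of Apoe took in the means of Srebf1 and Nr1h2. At 12000 fibers Apoe stood clear at 224 ± 15.8, ahead of Srebf1 at 73.1 ± 7.08, and Abca1 at 38.1 ± 2.12 had come level with Lpcat3 at 40.2 ± 4.02 and Nr1h2 at 36.6 ± 2.03. Abcg1, at 5.56 ± 0.949, had passed Nr1h3 at 1.62 ± 0.456, and Mylip stood between at 12.9 ± 3.22. At 30000 fibers Apoe held 102.5 ± 35, Srebf1 39.0 ± 4.52, Lpcat3 35.5 ± 4.09 and Nr1h2 33.6 ± 2.87, of which the last 3 overlapped in mean ± SD. Abca1 at 16.5 ± 2.77 and Mylip at 15.9 ± 3.44 overlapped too, as did Abcg1 at 2.92 ± 1.17 and Nr1h3 at 1.83 ± 0.476. The SDs are across libraries and the genes were not compared within each library, so a steady difference between genes could be missed.

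The levels of the other 7 genes were set beside those of Abca1 in each library. Over the 12 libraries, the Pearson r of log2 CPM with Abca1 was 0.97 for Abcg1, 0.93 for Apoe, 0.89 for Lpcat3, 0.48 for Srebf1, 0.42 for Mylip, -0.04 for Nr1h3 and -0.33 for Nr1h2. These are descriptions of 3 groups with different means, and Abca1, Abcg1 and Apoe were chosen for a shared peak at 12000 fibers, so r across the groups is no support for a link. With the group means removed r was 0.96 for Apoe, 0.66 for Abcg1, 0.61 for Mylip, 0.15 for Srebf1, 0.11 for Lpcat3, -0.01 for Nr1h3 and -0.60 for Nr1h2. Controls of mice 3 and 4 were thus higher than those of mice 1 and 2 for both Abca1 and Apoe, and mouse 2 at 30000 fibers was low in both. Within 12000 fibers, mouse 2 was the highest library for Abca1 and the lowest for Abcg1.

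**Figure D3:**
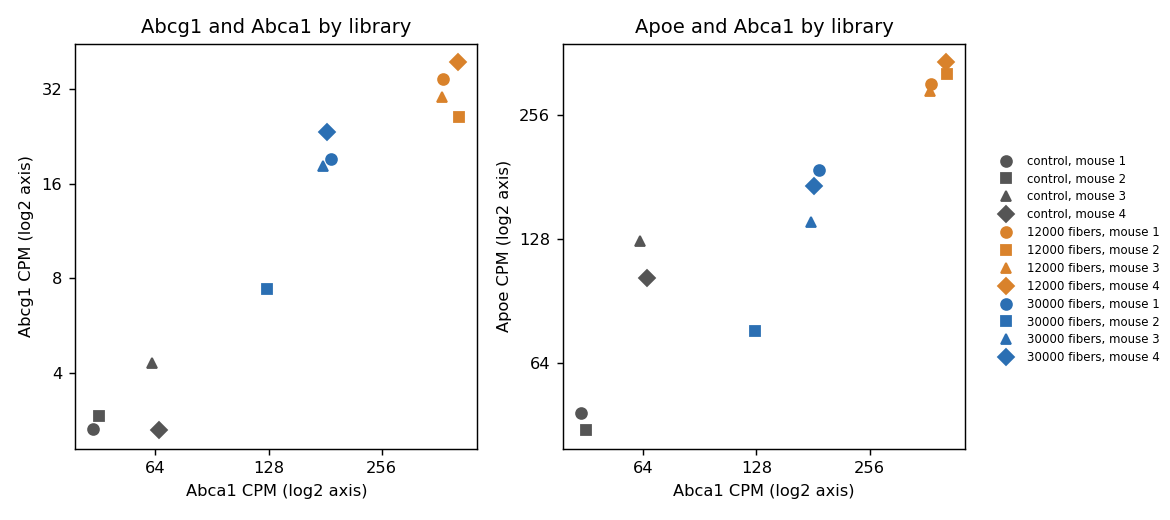
CPM of Abcg1 (left) and Apoe (right) on the vertical axes against CPM of Abca1, all on log2 axes; each point is 1 of 12 libraries, with colour for the group and symbol for the mouse. The 4 libraries of 12000 fibers sit at the top right, and mouse 2 at 30000 fibers sits lowest of its group in both plots, at 127 CPM of Abca1.

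Outside the 8, the 10 genes with the highest r with Abca1 among 11864 candidates (mean log2 CPM of at least 1) had r from 0.945 to 0.974. First came Kif1a, a kinesin motor, at 49.0 ± 10.97, 167 ± 12.1 and 96.1 ± 7.58 CPM in control, 12000 and 30000 fibers (SD, n = 4). B3gnt5, a glycosyltransferase of lacto-series glycolipids, stood at 8.83 ± 1.40, 23.5 ± 2.25 and 14.8 ± 2.52 CPM. Npc1, which carries cholesterol out of lysosomes, stood at 186 ± 23.7, 344 ± 21.1 and 257 ± 15.0 CPM. The others were Cttnbp2nl, Prnp, Hif1a, Adssl1, Nipal1, Scd1 and Rragd, each with its highest mean at 12000 fibers, as a likeness to Abca1 requires.

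The wider set of genes that liver X receptors are known to switch on was mixed, with 13 of the 22 listed genes tested. At 12000 fibers 8 rose and 1 fell, where 18.7% of all tested genes rose and 19.3% fell, with a median log2 fold change of 0.35 against -0.00 over all genes, and at 30000 fibers 7 rose and 3 fell, where 32.2% of all genes rose and 33.4% fell, with a median of 0.36 against -0.03. The same shares and medians of all genes apply to the other lists. Scd1, the desaturase that makes monounsaturated fatty acids, rose from 3871 ± 999 to 13730 ± 1935 CPM at 12000 fibers (log2 1.83 ± 0.18, SE; edgeR adjusted p = 4.204e-06) and stood at 10250 ± 1379 CPM at 30000 fibers (log2 1.41 ± 0.18; edgeR adjusted p = 9.659e-06). Apoc1, a small apolipoprotein whose gene neighbours Apoe, rose at both fiber numbers, but more at the higher one (log2 1.36 ± 0.18 and 2.11 ± 0.20). Mertk, a receptor for the uptake of dying cells, did the same (0.91 ± 0.23 and 1.83 ± 0.24). Acaca, which makes malonyl-CoA for fatty acid synthesis, rose by 0.35 ± 0.07 and 0.29 ± 0.08, while Smpdl3a fell at both (-0.44 ± 0.11 and -0.51 ± 0.13). Arl4c, a small GTPase linked to ABCA1 traffic, rose at 12000 fibers (0.22 ± 0.07) and fell at 30000 (-0.61 ± 0.08), signs like those of Srebf1. The call of Arl4c at 12000 fibers was lost without control mouse 4 (0.21, edgeR adjusted p = 0.0508) or mouse 2 at 12000 fibers (0.20, adjusted p = 0.0621).

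Fasn, which shares the printed string with Abca1 and Srebf1, rose from 836 ± 189 to 1259 ± 234 CPM at 12000 fibers (log2 0.59 ± 0.17; edgeR adjusted p = 0.0159). At 30000 fibers it stood at 972 ± 90.8 CPM and did not pass (0.22 ± 0.17; edgeR adjusted p = 0.277). The value of Srebf1 comes from a transcript that starts at 60220604, and the string lies at another start, 60210471, so it cannot be set beside the string directly.

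More partners and coregulators fell than rose. Of 15 tested, 2 rose and 5 fell at 12000 fibers and 2 rose and 6 fell at 30000 fibers, with medians of -0.08 and -0.16. Over all genes 18.7% rose and 19.3% fell at 12000 fibers, and 32.2% and 33.4% at 30000. Rxra, the retinoid X receptor that pairs with both liver X receptors, fell from 83.0 ± 4.65 to 70.5 ± 4.18 and 49.9 ± 3.76 CPM (log2 -0.23 ± 0.07, edgeR adjusted p = 0.01, and -0.74 ± 0.08, adjusted p = 8.162e-08). Rxrb did not pass at 12000 fibers (-0.04 ± 0.08) and fell at 30000 (-1.0 ± 0.10). Nrip1, a corepressor, fell at both (-0.89 ± 0.09 and -1.29 ± 0.10), as did Tbl1xr1, a subunit of the corepressor complex (-0.59 ± 0.06 and -0.72 ± 0.07). Ppargc1b, a coactivator, fell at 12000 fibers (-0.61 ± 0.17).

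Among 9 tested enzymes that make or clear oxysterols and other sterol ligands, 1 rose and 5 fell at 12000 fibers, and 2 rose and 4 fell at 30000, with medians of -0.21 and -0.31. Of all genes 18.7% rose and 19.3% fell at 12000 fibers, and 32.2% and 33.4% at 30000. Ch25h, which makes 25-hydroxycholesterol, fell from 2.95 ± 1.29 to 0.406 ± 0.190 CPM at 12000 fibers and stood at 0.760 ± 0.481 CPM at 30000 (log2 -2.86 ± 0.41 and -1.93 ± 0.49). Its lowest libraries held 0.267 CPM at 12000 and 0.334 CPM at 30000 fibers, near the floor of the counts, so the size of the fall is imprecise. Cyp51 and Ebp of cholesterol synthesis fell at 12000 fibers (-0.73 ± 0.10 and -0.46 ± 0.12). Hsd3b7, an enzyme of bile acid synthesis that acts on oxysterols, rose there from 5.25 ± 0.293 to 9.86 ± 1.57 CPM. Cyp46a1, the enzyme of 24-hydroxycholesterol, rose at 30000 fibers, from 0.975 ± 0.512 to 3.58 ± 0.602 CPM.

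**Figure D4:**
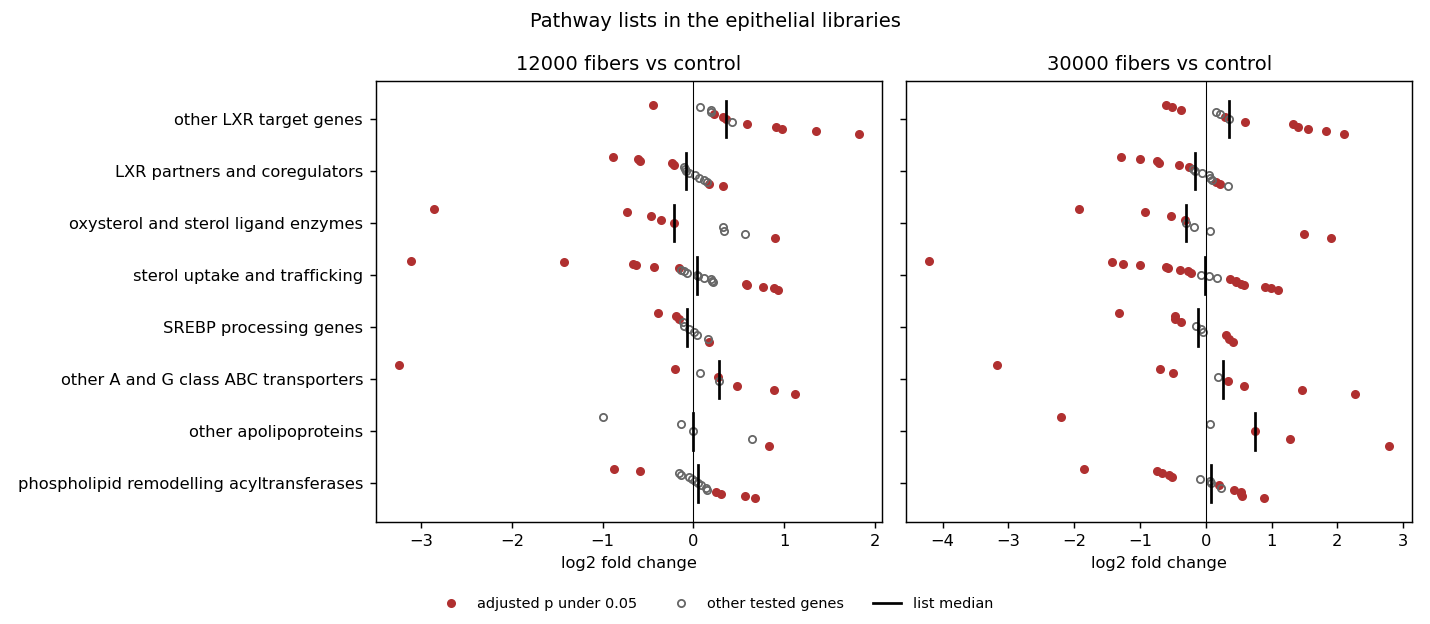
Log2 fold change (horizontal axis) of the tested genes of 8 pathway lists (vertical axis) at 12000 and at 30000 fibers against control; each point is a gene, filled where its edgeR adjusted p is under 0.05, and the bar is the list's median. Other LXR targets have medians of 0.35 and 0.36, and the partners and coregulators -0.08 and -0.16.

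Genes of sterol uptake and trafficking moved in both directions. Of 20 tested, 5 rose and 6 fell at 12000 fibers, and 8 rose and 9 fell at 30000, with medians of 0.04 and -0.01, against 18.7% and 19.3% of all genes at 12000 and 32.2% and 33.4% at 30000. Vldlr, a lipoprotein receptor that MYLIP removes, stood at 94.5 ± 19.9, 109 ± 11.8 and 129 ± 7.94 CPM and rose at 30000 fibers (0.21 ± 0.12, edgeR adjusted p = 0.204, and 0.46 ± 0.13, adjusted p = 0.00718). Npc1 rose by 0.88 ± 0.08 and 0.46 ± 0.08, and Gramd1b, which moves cholesterol from the plasma membrane inward, by 0.94 ± 0.10 and 1.09 ± 0.11. Cav1, the coat protein of caveolae, fell by 1.42 on the log2 scale at 12000 fibers.

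The machinery that senses sterol for SREBP, which activates many of the genes above, moved in both directions. Of 10 tested genes, 1 rose and 3 fell at 12000 fibers, and 3 rose and 4 fell at 30000. Over all genes 18.7% rose and 19.3% fell at 12000 fibers, and 32.2% and 33.4% at 30000. Srebf2, the factor of cholesterol synthesis, fell from 239 ± 15.8 to 182 ± 13.7 and 95.6 ± 1.33 CPM (log2 -0.39 ± 0.06 and -1.32 ± 0.07), where Srebf1 was higher at 12000 and lower at 30000 fibers. Insig1, the retention protein that sterol keeps bound, stood at 118 ± 8.48, 118 ± 11.1 and 85.7 ± 9.73 CPM and fell at 30000 fibers (-0.47 ± 0.09), but with the second transcript the value was 0.06 and did not pass (edgeR adjusted p = 0.779). At 12000 fibers Scap (-0.19 ± 0.07) and Mbtps1 (-0.16 ± 0.06) fell beside Srebf2. Both of these smaller calls were lost without control mouse 1 (-0.15 and -0.15) and without several other single libraries. The call of Scap was also lost with summed transcripts, the second transcript, DESeq2, the fit of 2 groups and the other library size (adjusted p = 0.238, 0.298, 0.0565, 0.0626 and 0.0513 in that order, from edgeR except the DESeq2 value).

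Of the other A and G class transporters, 2 of 8 tested had, like Abca1, their highest mean at 12000 fibers. That was near the share of all genes, 23.5%. Of the 8, 4 rose and 2 fell at 12000 fibers, and 4 rose and 3 fell at 30000. The shares of all genes were 18.7% and 19.3% at 12000 fibers and 32.2% and 33.4% at 30000. Abcg2, a drug and urate exporter, rose from 2.87 ± 0.534 to 6.28 ± 1.02 and 14.0 ± 1.52 CPM (log2 2.26 ± 0.19 at 30000 fibers). Abca13 fell from 2.44 ± 0.543 to 0.237 ± 0.170 and 0.235 ± 0.288 CPM, at the floor of the counts, with 0 CPM in the lowest library of each fiber group. Abca2 and Abca5 rose at both fiber numbers (0.28 ± 0.07 and 0.48 ± 0.14 at 12000), but with the second transcript Abca2 lost both calls (0.12, edgeR adjusted p = 0.553, and 0.01, adjusted p = 0.972), and Abca7 fell by 0.70 on the log2 scale at 30000.

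Few other apolipoprotein genes were listed. Of 17, 5 were tested: 1 rose at 12000 fibers, Apobr, a receptor for apolipoprotein B (0.84 ± 0.20), and at 30000 fibers 3 rose and 1 fell. Apoo, a mitochondrial inner membrane protein in spite of its name, stood at 3.33 ± 0.904, 2.99 ± 0.727 and 23.3 ± 3.93 CPM. Among 15 acyltransferases and phospholipases of phospholipid remodelling, the wider family around Lpcat3, 4 rose and 2 fell at 12000 fibers, and 6 rose and 5 fell at 30000. For both lists, the shares of all genes were 18.7% and 19.3% at 12000 fibers and 32.2% and 33.4% at 30000. Lpcat1, the enzyme of surfactant phosphatidylcholine, rose at 12000 fibers from 334 ± 69.5 to 536 ± 72.7 CPM (log2 0.68 ± 0.15), Agpat3 rose by 0.30 ± 0.07, and Lpcat2 and Mboat2 fell (-0.59 ± 0.13 and -0.87 ± 0.22). Lpgat1 passed at 12000 fibers with the mouse as a block (-0.16, edgeR adjusted p = 0.0431) and not without it (-0.16 ± 0.07, adjusted p = 0.0599).

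The 8 genes had 2 to 18 listed transcripts each, and many isoforms of a gene held nearly the same count, so a read seems to have been counted for several. In Apoe and Nr1h2, 3 other transcripts lay within 5% of the top one, and in Nr1h3, 2 did. The median share held by the other transcripts was alike in control and 12000 fibers and lower at 30000 fibers. Single transcripts did not all drop, and the second listed one of Srebf1 held 96.8%, 97.5% and 99.5% of the top count. The median relative to the top transcript was 75.0%, 75.8% and 47.2% in Apoe, 63.8%, 64.9% and 38.3% in Mylip, 16.4%, 17.3% and 6.5% in Srebf1, and 13.4%, 12.7% and 4.0% in Abcg1. For Abca1 it was 6.7%, 7.2% and 3.5% over its 1 other transcript. In Srebf1 the listed transcript that starts at 60210465, beside the start with the printed string, held 80%, 81.9% and 50.2%. Fold changes at 30000 fibers therefore depend on the transcript read, as given for Abca1 and Abcg1.

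**Figure D5:**
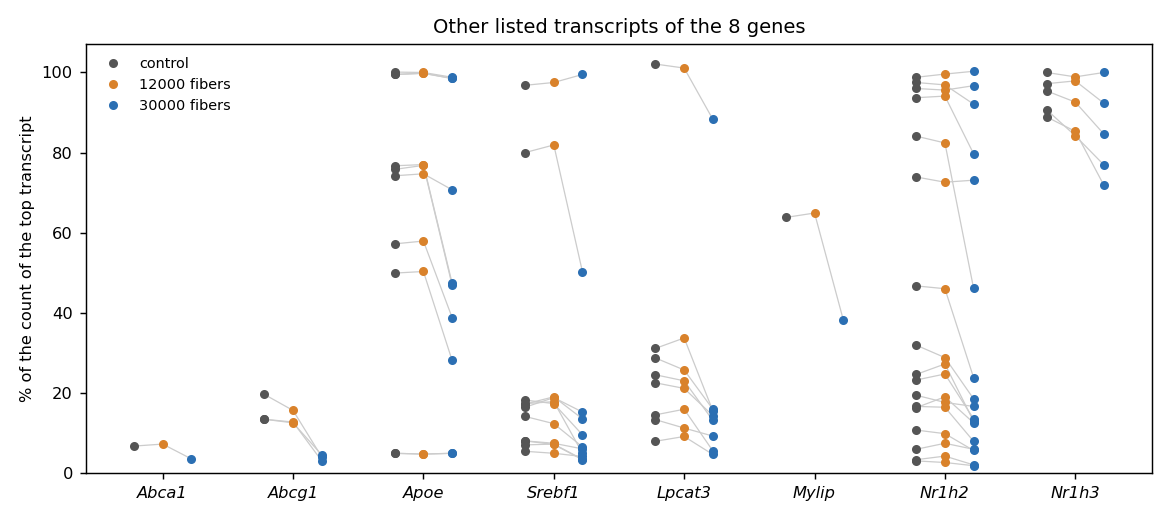
Count of every other listed transcript of the 8 genes as a percentage of the gene's top transcript (vertical axis), from mean counts of 4 libraries in control, 12000 and 30000 fibers; lines join the same transcript. In Apoe the median share is 75.0%, 75.8% and 47.2%, and most transcripts drop at 30000 fibers.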

How the data were processed

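RNA of the epithelial fraction of 12 organoid cultures was analysed, 4 libraries in each of 3 groups taken from the sample titles. The authors' tools include cutadapt 1.12 and HISAT2 2.1.0, on mm10, per the submitters' processing notes. The counting program, annotation, strand setting and handling of barcodes were not given in the sources used here. Raw counts were deposited by the authors per Ensembl transcript, as whole numbers that were not normalized. Of 71081 transcripts, 70518 were found in GENCODE M21 (GRCm38), which gave positions and lengths. Each gene was read from its transcript with the highest mean count, so isoforms were not added.

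The fibroblast columns held 36733 entries below the last identifier and had no relation to the epithelial ones entry by entry (Spearman rho = 0.047), so they were not used.

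All 12 libraries entered 1 fit in edgeR 4.0.16 (R 4.3.3): filterByExpr by group, TMM, robust quasi-likelihood F test, 9 residual degrees of freedom, Benjamini-Hochberg over 13759 genes, threshold 0.05. The fitting script was tested on simulated data. CPM are counts scaled to 1000000 of the TMM-scaled total over representative transcripts. Standard errors derive from the F statistic. Low counts, such as those of Nr1h3, Ch25h and Abca13, limit precision.

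The genes and lists were chosen with earlier results of these data known. Named pathway genes were, per list, up to 4 by smallest p at 12000 fibers and up to 2 more at 30000, plus Vldlr, Rxra and Srebf2. Some genes that the rule names are not reported here. Fasn was added after its promoter window had been seen. Alternatives were transcript choice, DESeq2 1.42.0, RLE factors, library size, filter, samples fitted, block and left-out libraries. A planned comparison of protein sequences was not run.

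Mouse numbers were taken to pair the groups, since the labels describe 4 isolations from 4 mice. Same-mouse deviations from the group means had a correlation of -0.071 to 0.235 over 10069 genes. The best correlation with a different mouse was 0.011 to 0.209, higher in some pairs and lower in others. Between control and the lower fiber number, mouse 1 had -0.071 against 0.127 and mouse 4 had 0.233 against 0.069. These values do not settle the pairing. The ratios within mice and the mouse block rest on it.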

Additional observations from a re-analysis of the deposited data

Results flagged for a closer look

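Of 168 groups of 4 libraries checked among the 8 genes and the named pathway genes, 9 had 1 library far from the other 3, where chance flags about 1 in 20. For Abca1 at 30000 fibers, mouse 2 stood at 127 CPM and the other 3 between 179 and 188.1. At 12000 fibers, Acaca was 121.1 CPM in mouse 2 (others 110.8 to 112.3), Rxrb 37.24 in mouse 4 (43.22 to 44.06), Hsd3b7 12.19 in mouse 4 (8.785 to 9.326), Ebp 19.64 in mouse 1 (17.82 to 18.13) and Abcg2 7.809 in mouse 3 (5.627 to 5.862). Ppargc1b was 6.598 CPM in the control of mouse 1 (4.962 to 5.212). At 30000 fibers, Abca2 was 117.6 CPM in mouse 4 (128.1 to 129.8) and Lpcat2 11.48 in mouse 3 (8.619 to 9.019).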

How the results depend on the processing

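The call at 12000 fibers of Abca1, Abcg1, Apoe, Srebf1 and Lpcat3 held in all 8 alternative settings and with each of the 12 libraries left out. The genes were chosen on these same libraries, so this describes the processing and is no support for the calls. Leaving out a library of 30000 fibers could hardly move this comparison, which rests on the other groups. At 30000 fibers against control, Apoe was called with DESeq2, with the second transcript (log2 1.02), without control mouse 3 (1.14) and without mouse 2 at 30000 fibers (1.06), while Mylip lost its call with the second transcript (0.03) and without mouse 4 at 30000 fibers (0.45). With the second transcript Nr1h2 went from -0.18 to 0.03 and Insig1 from -0.47 to 0.06 there, and Abcg1 (0.35) and Srebf1 (-0.15) lost their calls; with summed transcripts Lpcat3 did (0.21). Between the fiber groups the second transcript gave -2.04 for Abca1 and -2.69 for Abcg1, and Apoe lost its call without mouse 2 or 4 at 12000 fibers or mouse 2 or 3 at 30000. The cause was not tested.

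With the mouse as replicate block 5521, 9141 and 7769 genes were called, against 5231, 9026 and 7621 in the order of the report. Among the 8 genes, the block changed the calls of Mylip and no other. Among the named pathway genes, it changed that of Lpgat1 and no other in the comparisons with control. Their calls between the fiber groups were not examined under the other settings. Leaving out 1 library gave 4441 to 5414, 8605 to 9059 and 7067 to 7901 genes, and the other settings 3949 to 5521, 7617 to 9250 and 6757 to 7817. Depth was lowest at 30000 fibers, which among the 8 genes limits Nr1h3 and Abcg1 most.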
